A study of Mus musculus with 32 samples.

Results

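The genes of the cytosolic ribosomal proteins were followed through mouse livers after hepatectomy (surgical removal of liver tissue) or sham surgery, in animals labelled Flox control or Mettl14 KO. They were taken as every protein-coding mouse gene with a symbol made of Rpl or Rps and a number, with Rplp0, Rplp1, Rplp2 and Rpsa, and without pseudogenes, the Rps6k kinases and Rps19bp1. This gave 88 of the 55421 genes in the deposited table, 34 for the small ribosomal subunit and 54 for the large one. Symbols came from matching gene positions to RefSeq genes. No count was recorded in any library for 3 of the 88, Rpl10l, Rpl39l and Rpl3l.

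The livers of 16 mice gave 32 libraries, an input library and an IP library for each animal. The animals formed 4 groups of 4: sham-operated Flox control, hepatectomised Flox control, sham-operated Mettl14 KO and hepatectomised Mettl14 KO, called flox and KO here. Not given in the sources used here were the Cre driver, the strain, the sex, the extent of the hepatectomy and the time after surgery. The ages were 71 to 77 days, and both animals aged 77 days were sham flox animals. Input libraries held mRNA of whole liver, made with a stranded mRNA kit. IP libraries were made with another kit from total RNA that had been broken into short fragments and pulled down with an antibody against N6-methyladenosine (m6A), so a level in IP depends both on how much of an RNA there is and on how much of it the antibody binds.

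Ribosomal proteins and rRNA make up the ribosome, and cells that grow make large amounts of all of them together. METTL14 works with METTL3 to write m6A into mRNA. Most mRNAs for ribosomal proteins begin with a cytosine followed by a run of pyrimidines, the terminal oligopyrimidine (TOP) tract, through which mTOR signalling and LARP1 adjust their translation. A regenerating liver makes new ribosomes, which is why these genes are of interest after hepatectomy.

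The first bases of the transcripts are shown because the tract is what many of these genes share besides their product. Each line gives 10 bases before the RefSeq transcription start and 20 from the start base on (RefSeq, GRCm38.p6), 5′ to 3′ on the gene's strand. Capitals mark a tract, defined as a C followed by at least 4 pyrimidines that starts within 10 bases of the start. Rps6 lies at chr4:86857348-86857377 on the minus strand, Rpl28 at chr7:4792955-4792984 on the plus strand, Rps12 at chr10:23787190-23787219 on the minus strand and Rpl11 at chr4:136053374-136053403 on the minus strand.
Rps6: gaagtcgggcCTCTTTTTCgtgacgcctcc
Rpl28: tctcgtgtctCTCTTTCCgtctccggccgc
Rps12: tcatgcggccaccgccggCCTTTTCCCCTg
Rpl11: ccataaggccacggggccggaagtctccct
Rps6 and Rpl28 carry the tract at the annotated start base itself, Rps12 a few bases further on, and Rpl11 shows none in this window. RefSeq start windows were given for 68 of the 88 genes, with 80 starts. The tract lay at the start base in 15 of the 80 starts, 18.75%, against 2.505% of all 32851 starts. It began within 10 bases of the start in 55% of them, against 30.72% of all starts. The sequence CCGGAAG, searched on both strands of the 300 bases from 250 before to 50 after the start, was present in 33.75% against 8.858%. TATAAA, searched on both strands of the 250 bases before the start, was present in 6.25% against 12.37%. These are matches of letters and show no binding.

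Library totals were 8177784 to 12533931 counts in input and 7133766 to 24297854 in IP. Input libraries recorded few genes, a median of 5289 genes with at least 10 counts against 11389 in IP, and 4 to 29 of the 88 genes stood at 0 in an input library against 3 to 7 in an IP library. Within groups, the median coefficient of variation of the ribosomal protein genes was 72.7% to 109% in input and 38.4% to 50.7% in IP, so IP levels were the steadier ones. The deposited values are estimated counts in which a read that fits several places can be divided. Of the nonzero values of these genes 50.5% were not whole numbers, against 14.6% over all genes, and the table also holds 307 rows of ribosomal protein pseudogenes. Values of single genes are therefore uncertain in 51 genes, namely those where over 50% of the nonzero values were split and those whose symbol marks a relative of another ribosomal protein gene. Several genes described below belong to these 51. The split share was 93.75% for Rps6, 90.6% for Rpl21, 81.25% for Rpl17 and 78.1% for Rpl19. It was 68.75% for Rpl41, 64.5% for Rpl23a, 58.1% for Rpl28 and 56.25% for Rps12, against 25% for Rps19. Mettl14, the targeted gene, stood at 0 in all 16 input libraries. It had counts in 5 of 8 flox and 3 of 8 KO IP libraries, at most 8.14 and 3.08 CPM (a gene's counts relative to the library total), so the genotype labels could not be checked by its level.

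The summed level of the 88 genes separated the hepatectomised KO livers from the rest. In IP the sham flox libraries summed to 5397, 6153, 5472 and 6308 CPM, and the hepatectomised flox libraries to 5037, 5306, 3821 and 4013 CPM. Sham KO libraries summed to 8893, 5334, 4982 and 8379 CPM, and hepatectomised KO libraries to 15741, 15876, 25494 and 9938 CPM. All 4 hepatectomised KO libraries stood above all 12 other IP libraries, with wide spread among themselves. The group means, in the order given, were 5832 ± 465 (SD, n = 4), 4544 ± 737, 6897 ± 2024 and 16762 ± 6446 CPM. Hepatectomised KO livers thus had 3.69 times the IP sum of hepatectomised flox livers and 2.43 times that of sham KO livers. The hepatectomised flox sum was 0.779 times the sham flox sum, and the sham KO sum 1.18 times the sham flox sum.

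In input the sums lay closer together. Sham flox libraries summed to 5891, 5274, 6222 and 6161 CPM, and hepatectomised flox libraries to 5624, 5962, 7612 and 5527 CPM. Sham KO libraries summed to 6656, 5740, 7026 and 6308 CPM, and hepatectomised KO libraries to 8084, 12031, 8826 and 7635 CPM. The hepatectomised KO values again lay above those of all other groups, by a narrow margin over the highest hepatectomised flox library. The ratio of the means was 1.48 against hepatectomised flox and 1.42 against sham KO livers, and without the 51 uncertain genes it was 1.80 and 1.70. In bulk tissue, fewer cells of a type and less RNA per cell cannot be told apart, and a CPM is a share of the library, so a rise of these genes and a fall of others cannot be told apart either.

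**Figure D1:**
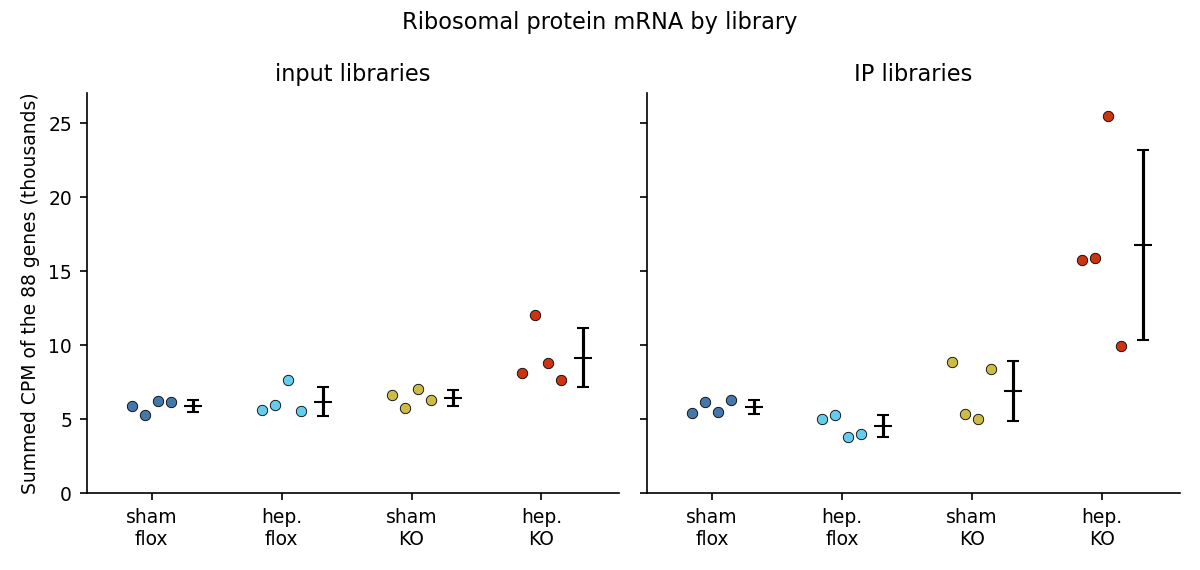
Summed CPM of the 88 ribosomal protein genes in each of the 32 libraries, input and IP side by side, by group of animals; points are libraries, and the horizontal mark and error bar are the group mean and 1 SD. The 4 hepatectomised KO IP libraries lie between 9938 and 25494 CPM, above every other IP library.

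Between hepatectomised KO and hepatectomised flox livers, some ribosomal protein genes of both subunits rose in IP, and none fell. Of the 83 genes that passed the filter on low counts, 20 rose (edgeR quasi-likelihood test, adjusted p under 0.05 over 14020 genes) and 0 fell. Over all genes tested, 48 rose, 0.342%, and 162 fell, 1.16%, and 41.7% of the 48 were ribosomal protein genes. The median log2 change was 1.63, with a range of -0.86 to 5.53, against 0.01 over all genes. The change was positive in 81 of the 83, against 50.2% of all genes, and 63 had an unadjusted p under 0.05, against 13.3%. In 45 of the 83 every hepatectomised KO library was above every hepatectomised flox library, against 4.36% of all genes. Without library scaling factors the genes split into 75 higher and 96 lower, and the median of all genes moved to 0.28 while that of the ribosomal protein genes moved to 1.90.

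Of the small subunit, 8 of 33 genes tested rose, with a median log2 change of 1.75 over the 33. Rps12, a protein of the beak of the small subunit, had IP levels of 36.4, 32.2, 13.8 and 31.6 CPM in the hepatectomised flox livers, against 189.9, 186, 430.1 and 201 CPM in the hepatectomised KO livers. The groups did not overlap, and the library of KO replicate 3 stood far above the others. The log2 change of Rps12 was 2.86, SE 0.51, adjusted p = 0.00217 (edgeR). The gene, ENSMUSG00000061983, spans positions 23785183 to 23787275 of chromosome 10 in the table, of unstated build.

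Rps19, needed for 18S rRNA maturation and mutated in Diamond-Blackfan anaemia, had 27.2, 18, 19.9 and 13.8 CPM in the hepatectomised flox livers, against 119, 112, 262 and 119.7 CPM in the hepatectomised KO livers. Again the groups were apart, with KO replicate 3 far above the other KO libraries (log2 change 2.68, SE 0.54, adjusted p = 0.0077, edgeR).

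Rps6, the substrate of the S6 kinases downstream of mTOR, had 146, 159, 139.6 and 103 CPM in the hepatectomised flox livers, against 372, 377, 656 and 461 CPM in the hepatectomised KO livers. Every KO library was above every flox library (log2 change 1.49, SE 0.38, adjusted p = 0.04, edgeR). Among the other small subunit genes that rose were Rps7, in the body of the subunit, and Rps15 and Rps16, in its head near the tRNAs. Rps3, which lines the mRNA entry, had 42.2 ± 26.6 CPM (SD, n = 4) in the hepatectomised flox livers, against 126 ± 25 CPM in the hepatectomised KO livers, and did not pass the test (log2 change 1.30, SE 0.53, adjusted p = 0.252, edgeR). Rpsa, also known as the laminin receptor, did not pass it either (log2 change 1.29, SE 0.70, adjusted p = 0.47, edgeR), although its groups did not overlap.

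Of the large subunit, 12 of 50 genes tested rose, with a median log2 change of 1.61. Rpl17, which lines the tunnel through which the new protein leaves, had 149.6, 153, 63.3 and 129 CPM in the hepatectomised flox livers, against 545, 452, 653 and 628 CPM in the hepatectomised KO livers. Here the KO libraries were close to each other (log2 change 1.92, SE 0.40, adjusted p = 0.00948, edgeR). Rpl23a, at the mouth of the same tunnel, had 134, 115, 96.3 and 65.3 CPM against 419, 548, 619 and 204 CPM. KO replicate 4 was the lowest KO library and above all flox libraries (log2 change 1.84, SE 0.38, adjusted p = 0.00918, edgeR).

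Rpl28, a protein that budding yeast lacks, had 114, 93.9, 131 and 95.1 CPM in the hepatectomised flox livers, against 345, 398, 547 and 333 CPM in the hepatectomised KO livers. Both groups were compact and apart (log2 change 1.63, SE 0.34, adjusted p = 0.0101, edgeR). Rpl21 had 344, 479.8, 331 and 352 CPM against 2057, 1633, 2521 and 483 CPM. KO replicate 4 barely exceeded the highest flox library, while the other KO libraries were far higher (log2 change 1.88, SE 0.43, adjusted p = 0.0178, edgeR). Among the other large subunit genes that rose were Rpl4, Rpl6, Rpl8, Rpl12, Rpl19, Rpl23 and Rpl26. Among them Rpl12 sits at the base of the stalk, Rpl4 reaches into the exit tunnel, Rpl26 lies near its mouth, and Rpl8 lies close to the peptidyl transferase centre.

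Rpl41 encodes the smallest ribosomal protein and had the highest level per kilobase of exon, 592 CPM per kb averaged over the IP libraries, followed by Rpl23a with 269. Its IP level was 568, 606, 452 and 526 CPM in the hepatectomised flox livers, against 1016, 1107, 2018 and 770.2 CPM in the hepatectomised KO livers. The groups did not overlap, yet the change did not pass the test (log2 change 0.92, SE 0.32, adjusted p = 0.18, edgeR). Rpl13 (log2 change 1.32, SE 0.39, adjusted p = 0.0979, edgeR) did not pass it either. The same held for Rpl29 (log2 change 1.06, SE 0.33, adjusted p = 0.118, edgeR) and for Rpl3, which shapes the peptidyl transferase centre (log2 change 1.26, SE 0.48, adjusted p = 0.222, edgeR).

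Rpl5 and Rpl11 form a particle with 5S rRNA that binds Mdm2 when ribosome assembly is disturbed. Rpl5 had 83.7 ± 12.2 CPM (SD, n = 4) in the hepatectomised flox livers, against 299 ± 198 CPM in the hepatectomised KO livers, and Rpl11 24.4 ± 18.7 and 64.7 ± 59.8 CPM. Neither passed the test (adjusted p 0.155 and 0.84, edgeR). The stalk proteins that bind elongation factors had log2 changes of 1.54 for Rplp0, 2.5 for Rplp1 and 1.86 for Rplp2, with adjusted p of 0.206, 0.234 and 0.288 (edgeR).

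Among genes with any count, 7 had a symbol ending in l, l1 or rt that marks a relative of another ribosomal protein gene. They gave no call, and 2 of them, Rps27rt and Rpl32l, were too low to be tested. Rps23rg1, another named relative, was not called either (log2 change 0.80, adjusted p = 0.972, edgeR). Rpl36al had a log2 change of -0.53, SE 0.49, adjusted p = 0.806 (edgeR). Rpl7l1, which takes part in pre-rRNA processing, had -0.86, SE 1.01, adjusted p = 0.877 (edgeR). These were the only negative values among the 83 genes. Rps27l had 1.36 and Rpl22l1 0.54. Rpl37rt gave the most positive value, 5.53, with hepatectomised KO levels of 1.14, 1.36, 24.7 and 98.4 CPM, so that it rested on replicates 3 and 4.

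**Figure D2:**
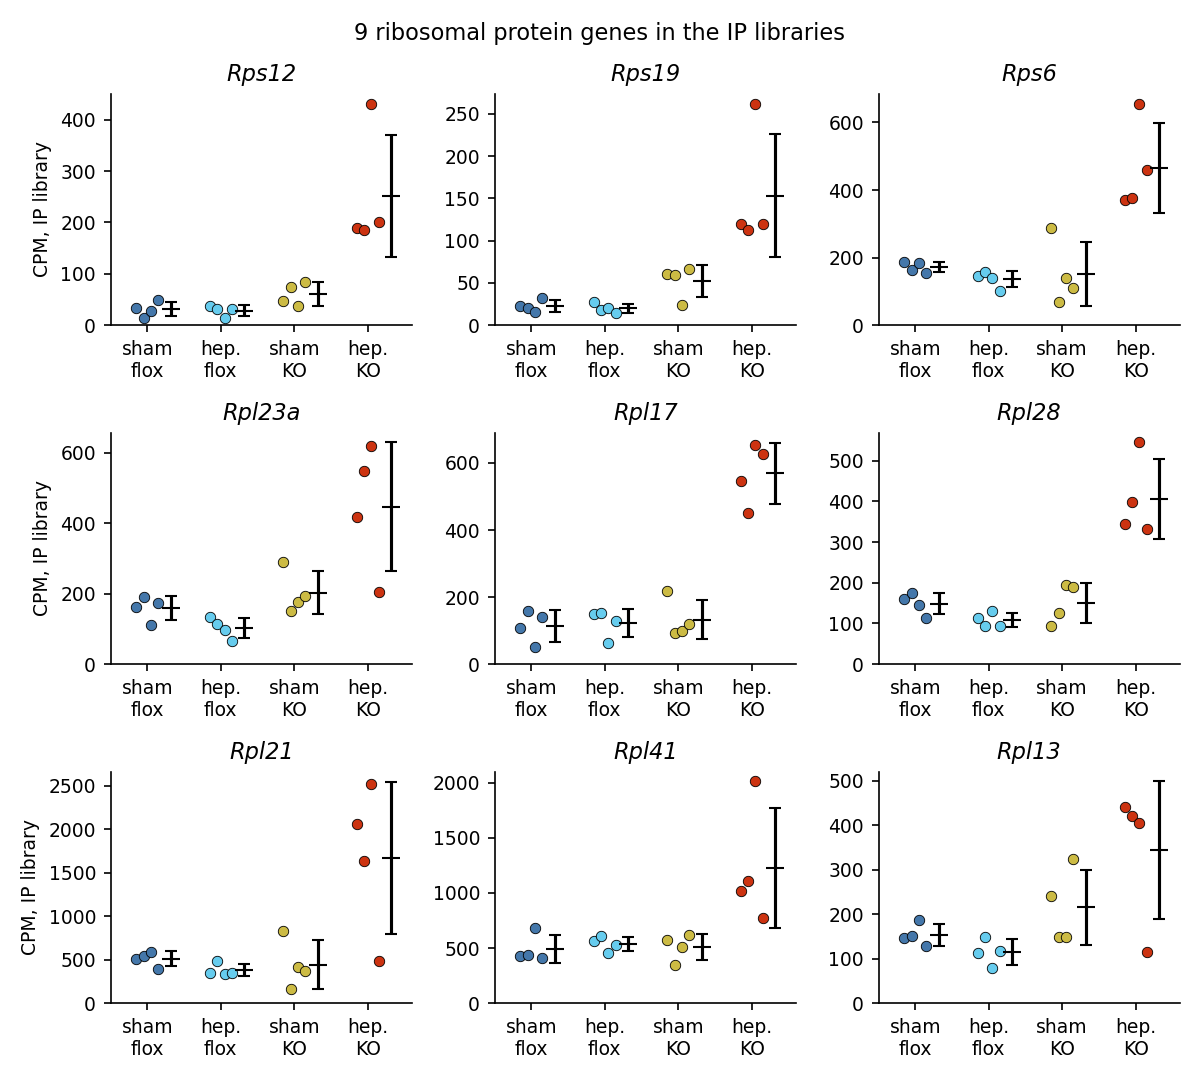
IP level in CPM (linear axis, scaled for each gene) of 9 ribosomal protein genes in the 16 IP libraries by group of animals; points are libraries, and the horizontal mark and error bar are the group mean and 1 SD. In Rpl17 the hepatectomised flox libraries lie between 63.3 and 153 CPM and the hepatectomised KO libraries between 452 and 653 CPM.

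**Figure D3:**
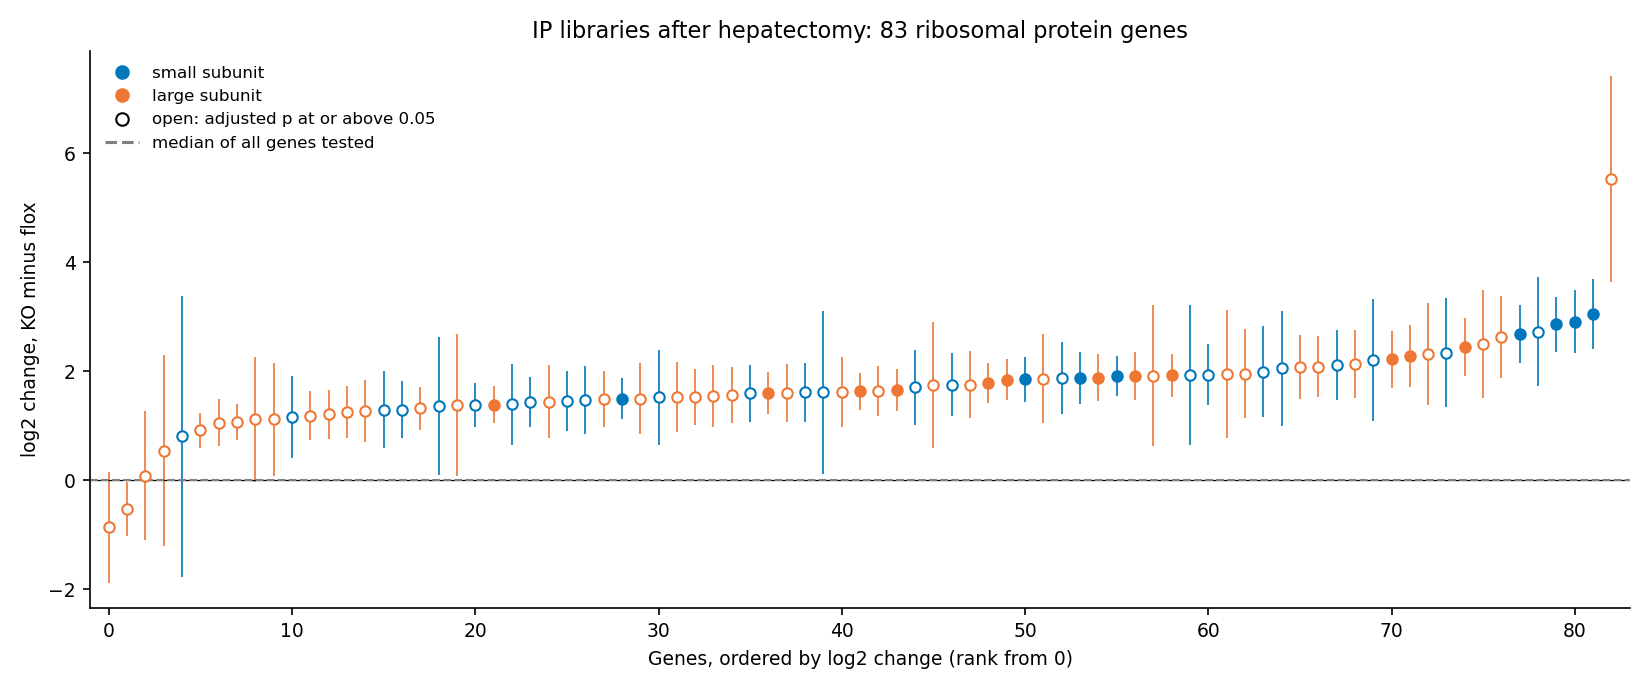
Fitted log2 change in IP between hepatectomised KO and hepatectomised flox livers for the 83 genes tested, with bars of 1 standard error, sorted by size along the horizontal axis; colours give the subunit, filled points passed the threshold, open ones did not, and the dashed line is the median of all genes tested. Values above 0 make up 81 of the 83, and the 20 that passed belong to both subunits.

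The number of genes called depended on single animals. Leaving out 1 animal at a time gave 11, 14, 7 and 5 calls without hepatectomised flox replicates 1 to 4, against 0.175%, 0.208%, 0.108% and 0.0938% of all genes called higher. Without hepatectomised KO replicates 1 to 4 it gave 12, 17, 5 and 41 calls, against 0.209%, 0.259%, 0.122% and 0.816%. The calls over all genes, which include these, were likewise fewest without flox replicate 4 and most without KO replicate 4. KO replicate 4 had the smallest of all IP libraries, with 7133766 counts and 6669 genes with at least 10 counts. Replicates 1 to 3 of its group had 16505974 to 19509035 counts and 10397 to 13190 such genes. The part of library size was not tested. Rps12, with 56.25% of its nonzero values split, passed in all 15 alternative fits, none of which changed how reads were divided. DESeq2 called 43 of the 83, against 5.77% of genes, and a filter at a mean of 50 CPM called 44 of 54, against 13.5%. That mean was taken over all 16 IP libraries, so genes could pass the filter through their hepatectomised KO levels. The IP sum without any 1 animal remained 3.05 to 4.19 times that of the flox livers.

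Other measures were also compared between these groups, first in IP. The summed IP level of 5 hepatocyte markers was 29207 to 43880 CPM in the hepatectomised flox livers, against 11256 to 28003 CPM in the hepatectomised KO livers, where Cyp2e1 (log2 change -2.45, adjusted p = 0.000725) and Apoa1 (-1.44, adjusted p = 0.00957) fell (edgeR). Sums of 5 markers each were 233 to 371 against 413 to 696 CPM for endothelium, 191 to 262 against 302 to 389 CPM for stellate cells, and 279 to 426 against 296 to 897 CPM for Kupffer cells. In hepatectomised KO replicates 1 to 4 the hepatocyte sums were 20273, 19676, 11256 and 28003 CPM. Between sham flox and sham KO livers the hepatocyte sums overlapped, at 31348 to 41902.5 against 26571 to 42680 CPM. Stellate cell sums were 146 to 201 against 250 to 536 CPM there, and Kupffer cell sums 213 to 297 against 327 to 561 CPM. Endothelium sums overlapped, at 328 to 456 against 399 to 589 CPM. None of the 15 single markers of endothelium, stellate cells and Kupffer cells passed the test. Of the 10 lymphocyte and neutrophil markers, 7 stood at 0 in every input library. In input, the hepatocyte sums of hepatectomised flox and KO livers overlapped, at 37384 to 42943 against 33189 to 40415 CPM. Endothelium and Kupffer cell sums overlapped there too. Stellate cell sums did not, at 0.0843 to 176 against 202 to 599 CPM. In IP the pseudogene rows of these groups summed to 173 to 252 against 477 to 1157 CPM. Mitochondrial transcripts made up 10.3% to 12.7% against 8.62% to 24.1% of IP counts, with overlap. With the mitochondrial counts left out of the totals, the ratio of the ribosomal protein sums was 4.01. The part of cell composition and of read division in these results was not tested.

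After hepatectomy against sham surgery in KO livers, 2 ribosomal protein genes rose in IP and 0 fell, against 7 higher, 0.0499%, and 82 lower, 0.585%, of 14020 genes (edgeR). Rpl17 had 217, 94.1, 98.1 and 121 CPM in sham KO livers, all below the hepatectomised KO libraries given above (log2 change 2.03, SE 0.40, adjusted p = 0.0123, edgeR). Rpl21 had 828, 161, 419 and 368 CPM in sham KO livers (log2 change 1.86, SE 0.43, adjusted p = 0.0346, edgeR), and here the groups overlapped. Neither gene passed without sham KO replicate 2 or 3 (0.0134% and 0.0135% of all genes called higher). Rpl17 alone passed without hepatectomised KO replicate 1 or 3 (0.0202% and 0.0339%) or sham KO replicate 4 (0.042%), and 17 ribosomal protein genes passed without hepatectomised KO replicate 4 (0.328%). The median log2 change of the 83 genes was 1.10, against -0.10 over all genes, and 80 of the 83 values were positive, against 46.8%, with 38 at an unadjusted p under 0.05, against 9.46%. DESeq2 called 17 of them, against 2.95% of genes, and a filter at a mean of 50 CPM 16, against 7.69%. The mean used by that filter again included the hepatectomised KO libraries. In 18 of the 83 every hepatectomised library was above every sham library, against 2.12% of genes. This comparison shares the hepatectomised KO libraries with the one above, so the values are not independent.

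In flox livers most values were negative after hepatectomy, and none passed the test. The median log2 change in IP was -0.29, against 0.05 over all genes, with 18 of 83 values positive, against 52.3%, and 4 genes had an unadjusted p under 0.05, against 6.93% of genes (edgeR, 0 called, against 0.0285% of genes in either direction). In 5 of the 83, among them Rpl8, Rpl9, Rpl12 and Rpl26, every hepatectomised library was below every sham library, against 2.29% of genes. Rpl12, for example, had 71.9, 114, 88.5 and 61.8 CPM in sham flox livers, all above the 37.1, 38.9, 27.4 and 12.5 CPM of the hepatectomised flox livers. Under DESeq2, 0 of the 83 passed in this comparison. The DESeq2 share over all genes is not given here, so that count cannot be set against it.

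Between sham KO and sham flox livers the median of the genes in IP was near that of all genes. The median log2 change was 0.21, against 0.16 over all genes, 52 of 83 values were positive, against 57%, and 3 had an unadjusted p under 0.05, against 5.69% (edgeR, 0 called, against 0.0927% of genes). For the interaction, which asks whether the effect of hepatectomy differed between genotypes, the median was 1.57 for the ribosomal protein genes and -0.25 over all genes. Of the 83 values 76 were positive, against 43.2% of genes, and 35 had an unadjusted p under 0.05, against 7.88% of genes. None passed the adjusted threshold (edgeR, 0.0285% of genes), while DESeq2 called 13 of them, against 1.91% of genes.

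In input, 0 ribosomal protein genes passed the test in any of the 5 comparisons (edgeR, 8769 genes, 81 of them ribosomal protein genes). Over all genes 0.0342% passed between hepatectomised KO and flox livers, 0.0228% between hepatectomised and sham KO livers, 0.0114% between sham KO and sham flox livers, and 0 in the other comparisons. Between hepatectomised KO and flox livers the median log2 change was 0.92 for the ribosomal protein genes and 0.49 over all genes, with 65 of 81 values positive, against 63.3%, and 4 with an unadjusted p under 0.05, against 14%. That median was 1.44 for the 32 small subunit genes and 0.67 for the 49 large subunit genes. DESeq2 called 4 of the 81, against 12% of genes. For the effect of hepatectomy in flox livers it called 4, against 15.4%, and for the interaction 3, against 14.1%. In Rpl34, Rps12 and Rps25 every hepatectomised KO library was above every hepatectomised flox library, 3 of 81, against 3.85% of genes.

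Rps12 had input levels of 16.7, 35.1, 70.3 and 12.8 CPM in the hepatectomised flox livers, against 153, 193, 129 and 159.9 CPM in the hepatectomised KO livers. It was thus higher in KO livers in both kinds of library, though its input change did not pass the test (log2 change 2.44, edgeR). Input groups apart in this direction were about as frequent over all genes, 3.85%, as among the ribosomal protein genes, 3 of 81. In contrast, Rpl17 had 72.9, 165, 320.3 and 233 against 322, 161, 274 and 319 CPM in input, where the groups overlapped.

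In the other input comparisons the median log2 changes of the ribosomal protein genes and of all genes were 0.48 against 0.24 between sham KO and sham flox livers, 0.65 against 0.16 between hepatectomised and sham KO livers, and 0.06 against -0.05 between hepatectomised and sham flox livers. The unadjusted p was under 0.05 in 0, 0 and 4 of the 81 genes (edgeR). Groups did not overlap in Rps2 for the first, against 1.78% of genes, and in Rpl4, Rpl35 and Rps12 for the second, against 1.65%. In the third, Rpl11, Rpl24 and Rps3a1 were higher in every hepatectomised library, against 0.821%, and Rpl27, Rpl41 and Rps25 lower, against 1.15%.

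**Figure D4:**
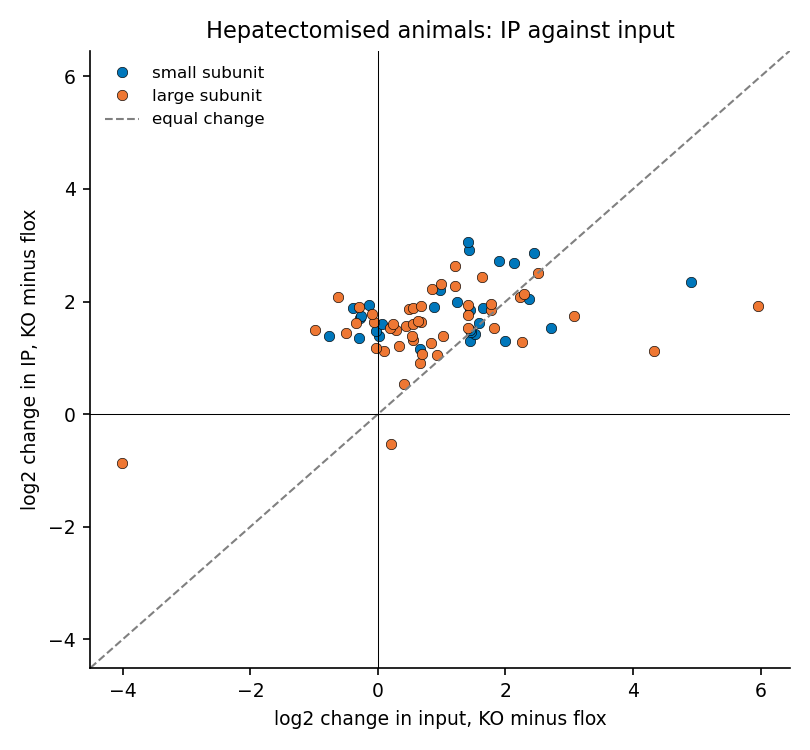
Fitted log2 change between hepatectomised KO and hepatectomised flox livers in IP (vertical axis) against input (horizontal axis) for 77 ribosomal protein genes, with the line of equal change; points are genes. Most points, 61 of 77, lie above the line, and 60 are positive on both axes.

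Set side by side over 77 genes, the changes in IP and in input between hepatectomised KO and flox livers had a Pearson correlation of 0.43 and a Spearman correlation of 0.35. Genes are not independent replicates, and the 4 genes with at most 3 counts in a hepatectomised input group were left out. The change was larger in IP for 61 of the 77.

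The IP sum over the input sum was taken within each animal. The log2 values were -0.13, 0.22, -0.19 and 0.03 for sham flox animals and -0.16, -0.17, -0.99 and -0.46 for hepatectomised flox animals. For sham KO animals they were 0.42, -0.11, -0.50 and 0.41, and for hepatectomised KO animals 0.96, 0.40, 1.53 and 0.38. The ratio was above 0 in all 4 hepatectomised KO animals and below 0 in all 4 hepatectomised flox animals, while both sham groups straddled 0. The means were -0.01 ± 0.18, -0.45 ± 0.39, 0.06 ± 0.44 and 0.82 ± 0.55 (SD, n = 4).

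In the fit over all 32 libraries, the median log2 difference in IP/input between hepatectomised KO and flox livers was 0.69 for the ribosomal protein genes and -0.99 over all 14328 genes, and 61 of 83 values were positive, against 34.6%. With the animal as a block the median of the ribosomal protein genes turned to -0.10, with 37 of 83 values positive, against a median of -2.12 over all genes. No ribosomal protein gene rose and 1, Rps25, fell, against 1 gene higher, 0.00698%, and 101 lower, 0.705% (edgeR). An exact two-sided permutation test of log2((IP + 1)/(input + 1)) in CPM, with 4 animals against 4, cannot give a p below 0.0286. It gave that p for 4 genes higher in KO, among them Rpl19, Rpl26 and Rps3a1, and for Rpl27, lower in KO, against 0.865% and 3.45% of all genes with groups that do not overlap. Adjusted over all genes tested, these p-values were at least 0.661. Rpl27 had 0, 0, 0 and 1 counts in the 4 hepatectomised flox inputs, so its ratios there depend on the added 1 CPM.

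Rpl19, which forms a bridge between the subunits, had log2 ratios of -1.28, -0.46, -1.64 and -1.35 in the hepatectomised flox animals, against 0.25, 0.84, 0.39 and 0.19 in the hepatectomised KO animals. Every KO animal was above every flox animal, at 0.42 ± 0.29 against -1.18 ± 0.50 (SD, n = 4). Rps25, near the tRNA exit site of the small subunit, was at 0 in all 4 hepatectomised flox inputs, with 48.7, 33.3, 1.92 and 26.8 CPM in IP. Its pooled IP level of 26.6 CPM was at least 418-fold higher than the floor of 0.0636 CPM, which is 3 counts over the 4 inputs. For IP/input, DESeq2 called 5 genes for genotype after hepatectomy, against 22.6% of genes, 1 for genotype after sham surgery (17.3%), 4 for hepatectomy in flox livers (23.4%) and 4 for the interaction (22.3%), where edgeR called 0 of the 83 in the last 3 and in hepatectomy of KO livers, against 0.0209%, 0.181%, 0.0419% and 0.0349% of genes. The fitted value of a gene such as Rps25 depends on a prior count, and the call was lost in 13 of 15 alternative fits, among them the one with the animal as a block (0 genes called). Rps15a and Rps14 were also at 0 in these inputs, with IP levels at least 159-fold and 92.2-fold above the floor.

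Within groups, the median log2 of IP over input was 0.41 for sham flox livers (0.95 over all genes) and -0.13 for hepatectomised flox livers (1.27). For sham KO livers it was -0.09 (0.71), and for hepatectomised KO livers 0.68 (0.31). With the animal as a block the medians were 1.69 (3.90 over all genes), 0.84 (4.95), 0.55 (3.69) and 0.77 (1.75) in the same order, so the median of the hepatectomised KO livers lay above that of all genes without the block and below it with the block. In IP against input, Rps25 was called in hepatectomised flox livers, against 1.24% of genes, and no other gene of the 83 was called in any group, against 0.279% of genes in sham flox, 0.0209% in sham KO and 0.37% in hepatectomised KO livers (edgeR). DESeq2 called 5, 2 and 4 in hepatectomised flox, sham flox and hepatectomised KO livers, against 28.8%, 24.7% and 14.2% of genes. With the 50 CPM filter 3 were called in hepatectomised KO livers, against 2.9%. Input and IP came from different library kits, so a level of this ratio mixes the pull-down with the kits. Averaged over all 16 animals, the log2 ratio was highest in Rpl28 (2.28), Rpl18 (2.08), Rpl12 (1.63) and Rpl3 (1.60), and lowest in Rpl11 (-0.92), Rpsa (-0.68), Rpl38 (-0.53) and Rps27a (-0.41), among genes with a mean input of at least 50 CPM. Single animals varied more than these means did. Rpl28, for example, had -0.23, 5.87, 0.72 and 1.16 in sham flox animals. Inputs at 0 also raise these means, through the added 1 CPM. Of the 16 inputs, 13 had counts for Rpl18, 14 for Rpl12 and 15 each for Rpl28 and Rpl3. With input at 0, Rpl28 had 7.05 in hepatectomised flox replicate 3 and Rpl18 6.67 in sham flox replicate 3. Averaged as CPM, Rpl3 had 92.0 in IP against 58.7 in input, and Rpl12 90.6 against 50.6. The ranking thus depends in part on such zeros.

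Other genes of the pathway were examined in the same IP comparison. Fau, which encodes the small subunit protein eS30 fused to a ubiquitin-like protein, had 71.4, 124, 124 and 118 CPM in the hepatectomised flox livers, against 376, 367, 766 and 267 CPM in the hepatectomised KO livers in IP. The groups did not overlap (log2 change 1.76, SE 0.40, adjusted p = 0.0173, edgeR).

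Of 23 other TOP mRNAs, mostly for translation factors, 3 rose and 0 fell in IP (edgeR), against 0.342% and 1.16% of all genes. These were Rack1, a scaffold on the small subunit (log2 change 2.94), Cct2 of the chaperonin (3.11) and the elongation factor subunit Eef1b2 (2.08). The median over the 23 was 0.70, and 22 values were positive, against 50.2% of all genes. Of 41 ribosome assembly genes 2 rose, Ncl (2.19) and Nop56 (2.71), both nucleolar, with a median of 0.78 and 32 positive. Of 75 mitochondrial ribosomal protein genes, whose products serve another ribosome, 0 passed, with a median of 0.18 and 42 positive, near the share over all genes. Of 19 genes that control ribosome production 0 passed, with a median of 0.01, and of 14 tested m6A writers, erasers and readers 0 passed, with a median of 0.03. The median over all genes was 0.01. These lists were chosen with earlier results of these data known, so their counts and medians are a description.

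**Figure D5:**
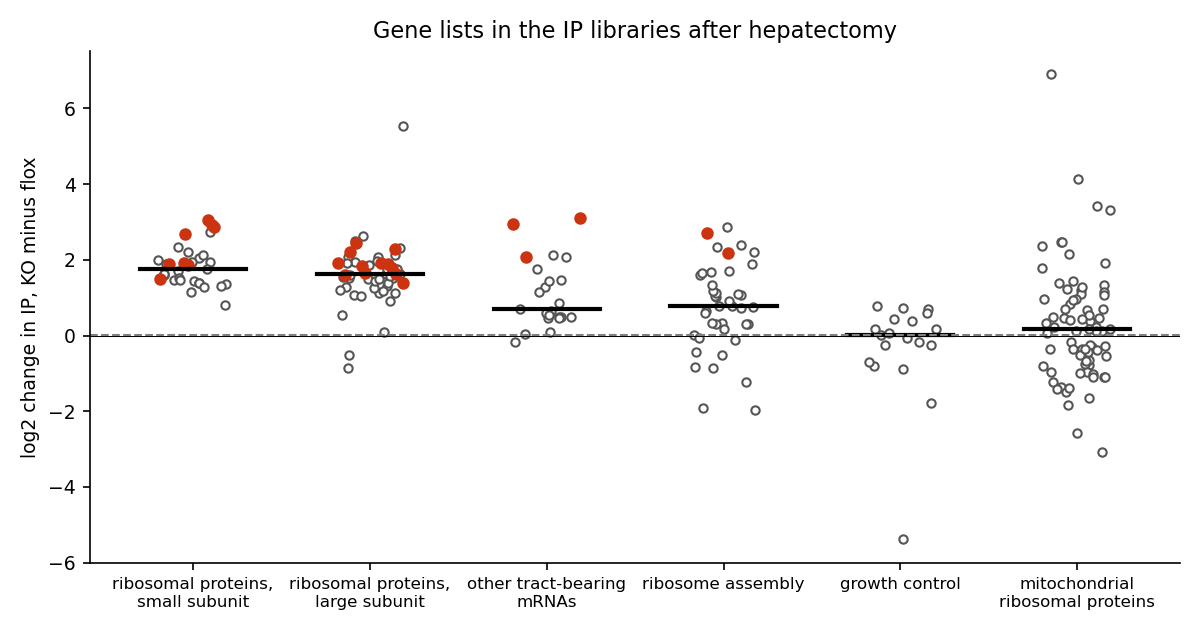
Fitted log2 change in IP between hepatectomised KO and hepatectomised flox livers for the genes of 6 lists; points are genes, filled where they passed the test, and black bars are medians. The medians are 1.75 and 1.61 for the ribosomal protein genes of the small and large subunit, 0.70 for the other TOP mRNAs, 0.78 for ribosome assembly and 0.18 for the mitochondrial ribosomal proteins.

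The IP change between hepatectomised KO and flox livers was set against features the genes share, as a description. Genes with the tract at the start base had a median log2 change of 1.61 (13 tested, 2 called), and those without it 1.61 (50 tested, 11 called). With a tract starting within 10 bases of the start the median was 1.70 (37 tested, 8 called), and without one 1.44 (26 tested, 5 called). Neither split was tested. Of the 88 genes, 30 host a small nucleolar RNA in the table, 55 RNAs in all, and 11 of the 20 called genes do. Summed over these RNAs, IP libraries held 0.0312 to 0.653 CPM in the hepatectomised flox livers, against 0.233 to 4.15 CPM in the hepatectomised KO livers, far below the host genes. The Spearman correlation of the change with exon length was 0.02 and with mean IP level -0.04 over 83 genes, which share libraries. The median change was 1.75 in the 42 genes with mostly whole counts (6 called) and 1.60 in the 41 with mostly split counts (14 called).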

How the data were processed

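The authors used fastp and STAR, per the submitters' processing notes. Their versions, the counting program, the annotation, the strand setting and the build are unknown (not given in the sources used here). In the deposited table are expected counts (estimated counts that need not be whole) for 55421 genes in 32 libraries, not scaled between libraries, which were rounded to whole numbers for the fits. Genes were named by position against RefSeq genes on GRCm38.p6, used for names only: 35899 genes received a symbol, and 2531 did once every position was moved by 1000000 bases.

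The tests were edgeR's (4.0.16, R 4.3.3, with TMM factors, filterByExpr with a minimum count of 10, quasi-likelihood F-tests, Benjamini-Hochberg adjustment over all genes tested, threshold 0.05), separately over the 16 input, the 16 IP and all 32 libraries (14328 genes). The SE is the log2 change over the square root of F. DESeq2 1.42.0 was the other tool, and both were tested on simulated data. Alternatives were other scaling factors, other filters, DESeq2, a replicate block, leaving out each animal in turn, and leaving out both animals aged 77 days. P-values measure only the spread between samples labelled as separate animals. Without molecular identifiers, PCR reads are not independent molecules, so floors cover counting error only. No 2 libraries were duplicates: their highest correlation was 0.952.

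Members and lists were chosen with earlier results of these data known. Genes named are the 10 with the highest mean input, named relatives, Rps3, Rps6, Rpl3, Rpl5, Rpl11, Rpsa, the stalk genes, up to 8 per direction and comparison by smallest p among those called, the 4 highest and 4 lowest in IP/input, up to 4 of each list, Fau and Mettl14; other genes called or not overlapping were named after their values were seen. Some genes are counted in the totals and not reported here by name.

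The labels pair input and IP by animal. Over 2329 genes with at least 50 CPM deviations from group means correlated between an animal's input and IP libraries at r = -0.0278 to 0.105. The IP/input fits had no block, and the animal as a block was their alternative.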

Additional observations from a re-analysis of the deposited data

Results flagged for a closer look

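In 40 sets of 4 libraries, 4 held a library far from the other 3 (its gap to the nearest one above Dixon's critical share of the range), and chance gives about 1 in 20. Rps12 stood at 430.1 CPM in the IP library of hepatectomised KO replicate 3, against 185.9 to 200.5 CPM in the other KO libraries of that group. Rps19 stood at 261.7 CPM in the same library, against 112.4 to 119.7 CPM. Rpl13 stood at 113.9 CPM in the IP library of 1 hepatectomised KO animal, below the others. Rpl21 stood at 479.8 CPM in the IP library of hepatectomised flox replicate 2, against 331 to 351.6 CPM.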

How the results depend on the processing

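No change of a gene called reversed its direction in any alternative. Medians of the ribosomal protein genes did change sign: with the animal as a block, from 0.69 to -0.10 in IP/input between hepatectomised KO and flox livers and from 0.37 to -0.09 between hepatectomised and sham KO livers; with the replicate number as a block, from 0.06 to -0.09 in input between hepatectomised and sham flox livers; and with DESeq2, RLE or no factors, from -0.37 to 0.04, 0.04 and 0.07 in IP/input between sham KO and sham flox livers. The medians of IP over input within a group, all but that of hepatectomised KO livers, changed sign under at least 1 alternative. Of 446 refitted changes of genes called, 328 stayed past the threshold and 118 lost it; the cause was not tested.

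For IP between hepatectomised KO and flox livers, 20 ribosomal protein genes were called with the main settings, 43 with DESeq2, 44 of 54 tested with a filter at a mean of 50 CPM, 27 without factors, 21 with RLE factors, 20 with upper-quartile factors and 21 without a filter; leaving out 1 animal gave 5 to 41. Over all genes, 48 rose with the main settings, 75 without factors, 55 with RLE factors and 47 with upper-quartile factors. RLE factors moved the median of all genes to 0.12. The mean used by the 50 CPM filter was taken over all 16 IP libraries, the hepatectomised KO ones among them.

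For IP between hepatectomised and sham KO livers, the 2 calls became 17 with DESeq2, 16 with the 50 CPM filter, 4 with RLE factors, 6 without a filter and 0 to 17 without 1 animal. Over all genes, 7 rose there with the main settings and 10 with RLE factors. The IP interaction gave 13 with DESeq2, 2 without a filter and 0 to 4 without 1 animal. Shares over all genes are not given here for the fits without a filter or for the interaction without 1 animal.

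DESeq2 also called, in input, 4 genes for hepatectomy in flox, 4 for genotype after hepatectomy and 3 for the interaction; for IP minus input, 5 in hepatectomised flox, 4 in hepatectomised KO and 2 in sham flox livers; and for IP/input, 4 for hepatectomy in flox, 5 for genotype after hepatectomy, 1 for genotype after sham surgery and 4 for the interaction. The 50 CPM filter gave 3 for IP minus input in hepatectomised KO livers, and without a filter IP/input gave 1 for hepatectomy in flox. Rps25, the 1 call in IP/input after hepatectomy, became 0 with RLE, no or upper-quartile factors and with the 50 CPM filter. The animal as a block also gave 0, as did leaving out any 1 of the 8 animals (0 to 0). Without 1 animal, IP minus input gave 0 to 1 in hepatectomised KO, 0 to 2 in hepatectomised flox and 0 to 1 in sham flox livers, and IP/input gave 0 to 1 for genotype after sham surgery, for hepatectomy in flox and for the interaction.

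With the replicate number as a block, 20 genes were called in IP between hepatectomised KO and flox livers, 17 of them shared with the main fit, and 3 between hepatectomised and sham KO livers. The labels do not say what a number shared across groups marks. Of 24 same-numbered IP pairs 4 correlated above 0.1, 3 of them between sham flox and sham KO livers, at 0.135, 0.194 and 0.364, where the other pair had 0.0389. Apart from these, the replicate number as a block changed no count of calls. In the fits over all 32 libraries the block was the animal, and it changed only the count of Rps25 above.

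The ratios of summed input levels moved to 1.26 for sham KO over sham flox (main 1.09) with TMM library sizes, and, without uncertain genes, to 1.80 for hepatectomised KO over flox (main 1.48) and 1.70 for hepatectomised over sham KO (main 1.42). With a pseudocount of 0.1 CPM instead of 1, 7 rather than 5 genes reached the smallest p for IP/input per animal. Genes at or near 0 in input limit that ratio.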
